A study of Homo sapiens with 24 samples.

Results

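The cytosolic ribosomal protein genes were followed through 24 RNA-seq libraries of 4 human cancer cell lines treated with EPZ015666, a small-molecule inhibitor of the arginine methyltransferase PRMT5, or with its solvent DMSO. The members were all genes of the deposited expression table whose symbol is RPL or RPS followed by A, by P0 to P2, or by a number with its usual suffix, as in RPL10A, RPLP0 or RPS27L. This rule used names only and gave 73 of 16591 genes, 44 of the large and 29 of the small ribosomal subunit. Another 210 symbols that begin with RPL or RPS, such as pseudogene copies and kinase genes, were not members, and RPS10 was not analysed here. RPS27 is described apart from the rest because it moved against the family in earlier work on these data.

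The groups were EPZ015666 at 5 µM and DMSO at day 5 in BT549, OVCAR8, COV362 and MDAMB436, and EPZ015666 at 5 µM and DMSO at day 3 in BT549 and OVCAR8. BT549 and MDAMB436 are breast cancer lines, and OVCAR8 and COV362 are ovarian cancer lines. Each of the 12 groups had 2 libraries, lettered A and B. Nothing in the labels tells separate cultures from repeat preparations for A and B, so p-values measure the spread between 2 libraries that may differ only technically. No group carried a genetic change made by the study, and each line stands for 1 tumour.

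Cytosolic ribosomes are built from ribosomal RNA and a set of proteins that are needed in equal numbers, so cells usually make these proteins in step. Their mRNAs start with a run of pyrimidines, the terminal oligopyrimidine tract, through which mTOR signalling and the RNA-binding protein LARP1 set their translation and stability. Introns of many ribosomal protein genes carry small nucleolar RNAs (snoRNAs), which guide modification of ribosomal RNA. PRMT5 places symmetric dimethyl marks on arginines of histones, splicing factors and other proteins. In proliferating cancer cells, output of ribosomal proteins is a large part of the mRNA pool.

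Values are RPKM (reads per kilobase of gene in a library scaled to 1 M reads, with M for 1e6) as the authors deposited them, with the length taken over the whole gene span. Changes are differences of log2(RPKM + 1) with their standard error (SE), so they understate the change of low genes, and folds are ratios of mean RPKM. P-values come from limma, with Benjamini-Hochberg adjustment over all genes tested in a comparison, and a gene was called at an adjusted p under 0.05. Whole reads could be recovered from the RPKM steps, and the libraries held between 23.77 M and 44.96 M reads (median 27.8 M). In single libraries RPS27 rested on 125 to 571 reads, RPS27L on 756 to 2107, RPL10A on 7093 to 30771, and RPL5 on only 7 to 49.

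Some libraries differed in ribosomal RNA. Reads on ribosomal RNA loci made up a median of 0.29% of reads, but 4.54% in OVCAR8 EPZ015666 day 5 B and 1.39% in BT549 EPZ015666 day 3 A, and the counts of calls and the changes of most members described in those comparisons are also given without them. Lineage markers matched the labels only in part. Of the breast markers, GATA3 averaged 4.57 RPKM in BT549, 0.0601 in MDAMB436, 0.449 in OVCAR8 and 0.077 in COV362. TFAP2C averaged 4.99 RPKM in MDAMB436, 1.85 in BT549 and 1.88 in COV362, and TFAP2A was highest in OVCAR8 at 3.07 RPKM. Of the ovarian or Müllerian markers, SOX17 averaged 50.5 RPKM and EMX2 12.5 RPKM in COV362, but 0.0123 and 0 in OVCAR8, while MDAMB436 had 1.83 and 2.35. MSLN averaged 22.9 RPKM in OVCAR8 and 13.5 in COV362, against 1.58 in BT549 and 0.511 in MDAMB436. PAX8 was at 0.326 RPKM or below and WT1 at 0.173 or below in every line.

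The sequences around the starts of 4 members are shown because a pyrimidine run there is common in the family, though RPS27L has only a short one. Letters run 5′ to 3′ on the gene's strand, from 60 bases before to 25 bases after the RefSeq start in GRCh38.p14, and capitals mark the longest run of C and T that touches the 10 bases on either side of the start. RPS27 is at chr1:153990702-153990786 on the plus strand, with a run of 9 bases. RPS27L, its paralogue, is at chr15:63157453-63157537 on the minus strand, with a run of 3. RPL13A is at chr19:49487548-49487632 on the plus strand, with a run of 14. RPL10A is at chr6:35468341-35468425 on the plus strand, with a run of 10.
RPS27: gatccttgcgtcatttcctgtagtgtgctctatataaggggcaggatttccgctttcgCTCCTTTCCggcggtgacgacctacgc
RPS27L: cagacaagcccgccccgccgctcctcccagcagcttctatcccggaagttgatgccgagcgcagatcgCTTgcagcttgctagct
RPL13A: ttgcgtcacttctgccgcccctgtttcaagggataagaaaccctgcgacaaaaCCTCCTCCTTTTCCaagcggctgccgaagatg
RPL10A: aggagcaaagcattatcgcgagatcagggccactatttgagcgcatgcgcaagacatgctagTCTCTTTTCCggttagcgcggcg

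Of the 73 members, 58 had a promoter entry in RefSeq. A run of at least 8 pyrimidines within 10 bases of the start was present in 47 of the 58 (81.0%), against 4196 of 27305 entries of all genes (15.4%), and the median longest run was 11 bases in members against 4 bases in all entries. In the windows from 250 bases before to 50 after the start, read on both strands, the letters CCGGAAG, as bound by ETS factors, occurred in 19 members (32.8%) against 10.7% of all entries. The letters AAGATGGC, as bound by YY1, occurred in 6 members (10.3%) against 3.0%, and TATAAA occurred in 6 members (10.3%) against 12%. The AAG that ends the ETS letters can also begin the YY1 letters. These matches describe the sequence and do not show binding.

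RPS27 codes for a zinc-finger protein of the small subunit (GENCODE v29, chr1:153990755-153992155, plus strand), and RPS27L at chr15:63125872-63158021 on the minus strand codes for a near-identical protein. Their coding sequences are printed because the members differ in what they did under the drug while their proteins are nearly the same. They have the same length and are 78.0% identical, and capitals mark the 56 positions where they differ.
RPS27: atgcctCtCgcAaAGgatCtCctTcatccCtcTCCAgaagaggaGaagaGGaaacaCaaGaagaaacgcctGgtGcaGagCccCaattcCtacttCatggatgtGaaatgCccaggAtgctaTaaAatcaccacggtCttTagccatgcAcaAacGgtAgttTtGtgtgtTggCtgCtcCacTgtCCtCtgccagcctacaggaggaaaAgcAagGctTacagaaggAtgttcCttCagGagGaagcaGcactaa
RPS27L: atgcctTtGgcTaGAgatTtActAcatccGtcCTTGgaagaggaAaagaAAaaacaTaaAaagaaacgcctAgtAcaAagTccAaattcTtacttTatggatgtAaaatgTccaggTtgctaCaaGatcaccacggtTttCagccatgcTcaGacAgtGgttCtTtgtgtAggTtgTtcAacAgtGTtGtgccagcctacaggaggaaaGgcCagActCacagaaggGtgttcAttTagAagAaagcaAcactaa

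Reads from copies limit what a count of RPS27 can mean. Of the 75-base words in its annotated exons, 63.5% also occurred in the exons of 11 other genes, and 15 copies are annotated, of which 0 were in the table. None of the exon words of RPS27L was shared (0%). How the authors' counting treated reads that map to several places is not given in the sources used here. Over the whole family, 68 members had an annotated copy, the median member shared 11.2% of its words, and 24 members shared at least 20%.

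RPS27 was higher with EPZ015666 in all 6 drug comparisons. At day 5 BT549 had 9.58 and 9.28 RPKM with EPZ015666, against 4.71 and 4.22 RPKM with DMSO, a 2.11-fold difference (log2 change 0.93 ± 0.08 SE, adjusted p = 0.000183). At day 3 BT549 had 7.11 and 8.25 RPKM with EPZ015666, against 3.86 and 3.61 RPKM with DMSO (2.06-fold, 0.87 ± 0.08, adjusted p = 0.000998). In both BT549 comparisons the treated and solvent libraries did not overlap, and without the day 3 library with more ribosomal RNA reads the log2 change was 0.97 (adjusted p = 0.00281). In OVCAR8 at day 5 it had 8.05 and 9.75 RPKM with EPZ015666, against 3.795 and 3.47 RPKM with DMSO (2.45-fold, 1.09 ± 0.10, adjusted p = 0.000275). Without the OVCAR8 day 5 library with more ribosomal RNA reads, which held the higher treated value, the log2 change was 0.97 (adjusted p = 0.00144). At day 3 OVCAR8 had 5.38 and 6.19 RPKM with EPZ015666, against 3.18 and 3.49 RPKM with DMSO (1.74-fold, 0.65 ± 0.10, adjusted p = 0.0039). This was the smallest of the 6 changes, yet again each treated library lay above both DMSO libraries.

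COV362 and MDAMB436 showed the same direction for RPS27. In COV362 it had 10.98 and 11.2 RPKM with EPZ015666, against 6.36 and 5.48 RPKM with DMSO (1.87-fold, 0.81 ± 0.07, adjusted p = 0.000785). In MDAMB436 it had 13.1 and 11.975 RPKM with EPZ015666, against 6.87 and 6.08 RPKM with DMSO (1.93-fold, 0.86 ± 0.07, adjusted p = 0.00293). No treated library overlapped a DMSO library in either line. Fitted over the 4 lines at day 5, the common change was 0.92 ± 0.05 (adjusted p = 8.89e-11), and the test for a difference of this change among lines gave an adjusted p of 0.218. The change at day 5 minus that at day 3 was 0.06 ± 0.11 in BT549 (adjusted p = 0.758) and 0.45 ± 0.14 in OVCAR8 (adjusted p = 0.0918). With DMSO alone, RPS27 at day 5 against day 3 changed by 0.21 in BT549 (adjusted p = 0.104) and 0.10 in OVCAR8 (adjusted p = 0.475), neither past the threshold. The rise in each drug comparison passed the threshold under all 12 other settings of the analysis, with the highest adjusted p at 0.0278.

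RPS27L moved with the drug in fewer settings than RPS27. The values in MDAMB436 were 1.957 and 1.915 RPKM with EPZ015666, against 1.228 and 1.097 RPKM with DMSO (1.67-fold, 0.44 ± 0.04, adjusted p = 0.00342). In BT549 at day 3 it had 1.995 and 2.33 RPKM with EPZ015666, against 1.724 and 1.601 RPKM with DMSO (1.3-fold, 0.25 ± 0.06, adjusted p = 0.0315), a call that held under 6 of 11 other settings and without EPZ015666 A (0.32, adjusted p = 0.02). Treated libraries lay above DMSO libraries in both. The BT549 values at day 5 were 1.756 and 1.821 RPKM with EPZ015666, against 1.604 and 1.442 RPKM with DMSO, which did not pass. RPKM is per length of gene span, and that of RPS27L is long (32150 bases, against 1401 for RPS27). Over the 24 libraries RPS27L averaged 43.3 reads in a library scaled to 1 M reads, against 9.82 for RPS27. A low RPKM of RPS27L thus does not mean few reads. In OVCAR8 and COV362 its mean was under 1 RPKM and it was not tested. There the values overlapped, at 0.9 and 0.968 RPKM with EPZ015666 against 1.055 and 0.949 RPKM with DMSO in OVCAR8 at day 5, and at 0.905 and 1.026 RPKM with EPZ015666 against 0.96 and 0.892 RPKM with DMSO in COV362. OVCAR8 at day 3 had 1.016 and 1.135 RPKM of RPS27L with EPZ015666, against 1.026 and 0.897 RPKM with DMSO.

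**Figure D1:**
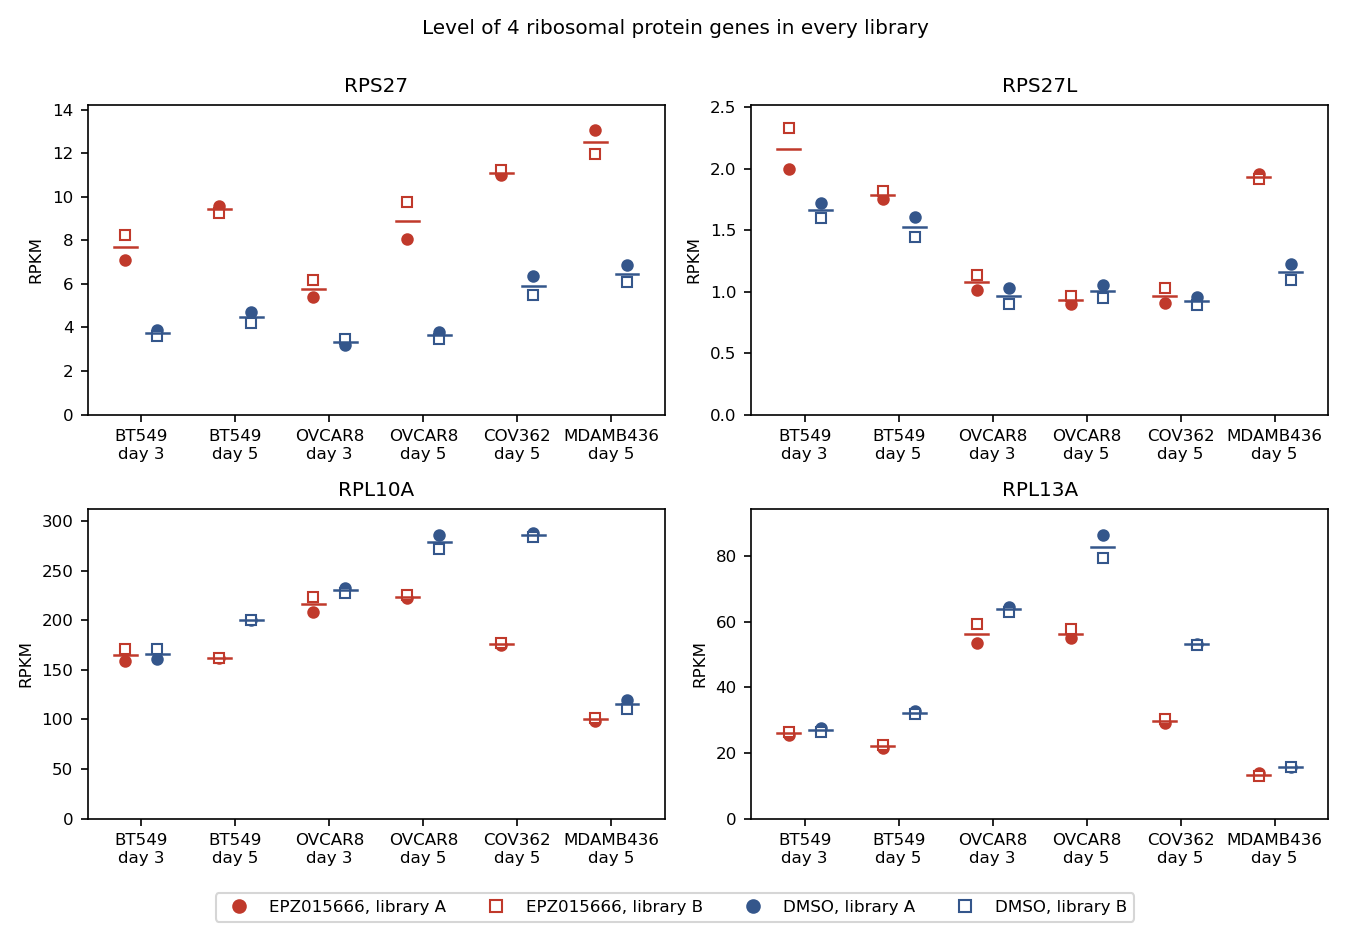
RPKM of RPS27, RPS27L, RPL10A and RPL13A in each library, with EPZ015666 in red left of DMSO in blue, replicate A as a filled circle, B as an open square and a bar at the mean of each group. RPS27 is higher with EPZ015666 in all 6 comparisons, by 1.74-fold to 2.45-fold, while RPL10A and RPL13A are lower at day 5 in each of the 4 lines.

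Levels of the members spanned a wide range. Per length of gene span the highest was RPL8, part of the core of the large subunit, with a mean of 1216 RPKM over the 24 libraries, and the lowest was RPL5 with 0.10 RPKM. The median member had 37.1 RPKM, and RPS27 averaged 6.91 RPKM. Per kilobase of exon, RPL8 had 1614 and RPS27 9.49 reads in a library scaled to 1 M reads (RPM). Of the exon bases of RPL5, 92.8% lie inside the spans of other genes, among them FAM69A on the opposite strand. Members together took between 2.53% and 4.62% of all reads in a library.

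Lines differed in their levels before treatment. Among DMSO libraries at day 5, 67 of 68 members tested in each line differed among the lines, beside 98.4% of all genes tested, so this share is no property of the family. RPS27 had 6.87 and 6.08 RPKM in MDAMB436 and 6.36 and 5.48 RPKM in COV362, which overlapped, and both lay above BT549 with 4.71 and 4.22 RPKM and OVCAR8 with 3.795 and 3.47 RPKM. For RPL10A, COV362 and OVCAR8 overlapped at the top (284 to 288 and 272 to 286 RPKM), above BT549, with MDAMB436 the lowest. RPL13A had the order OVCAR8, COV362, BT549, MDAMB436, with no overlap between neighbours.

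Apart from RPS27, ribosomal protein mRNAs were lower with EPZ015666 at day 5 in the 2 ovarian lines. In OVCAR8, 54 of the 69 members tested (78.3%) were lower and 1 was higher, beside 35.1% of all genes lower and 21.1% higher, and the median change of members was −0.27 beside −0.04 over all genes. In COV362, 47 of 68 members (69.1%) were lower and 5 were higher (RPS27, RPL22L1, RPL26L1, RPS26 and RPL21), beside 31.5% of all genes lower and 39.3% higher, and the medians were −0.25 and 0.03. Members' share of all reads was 3.69% and 3.64% with EPZ015666, against 4.57% and 4.32% with DMSO, in OVCAR8, and 3.69% and 3.76% with EPZ015666, against 4.62% and 4.47% with DMSO, in COV362. Reads of mitochondrial genes moved the other way, at 0.947% and 1.14% of reads with EPZ015666, against 0.825% and 0.917% with DMSO, in OVCAR8, and at 1.62% and 1.71% with EPZ015666, against 1.38% and 1.25% with DMSO, in COV362. With mitochondrial and ribosomal RNA reads left out of the total, members took 3.73% and 3.86% with EPZ015666, against 4.62% and 4.37% with DMSO, in OVCAR8, and 3.78% and 3.83% with EPZ015666, against 4.71% and 4.54% with DMSO, in COV362, so the difference was of like size. In such bulk libraries less of an mRNA in each cell and fewer cells that hold it cannot be told apart. Without OVCAR8 DMSO day 5 A, 36 members passed in either direction in that line in place of 55, and without the library with more ribosomal RNA reads 48 passed. With median-of-ratios scaling in place of the authors' totals, 42 members were lower and 1 higher in OVCAR8, and the calls over all genes were 1784 lower and 1780 higher in place of 2220 lower and 1338 higher.

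In the breast lines at day 5 the share of members called lower was near that of all genes, and the share called higher was below it. In BT549, 18 of 70 members (25.7%) were lower and 3 (4.29%) were higher (RPS27, RPL7 and RPL21), beside 22.7% of all genes lower and 17.7% higher, with medians of −0.13 and −0.01. In MDAMB436, 20 of 70 (28.6%) were lower and 3 (4.29%) were higher (RPS27, RPS27L and RPS28), beside 23.2% lower and 19.0% higher, with medians of −0.11 and −0.01. Leaving out any 1 of the 4 BT549 libraries of day 5 left 5 or 6 members past the threshold in place of 21. In MDAMB436, 23 members passed, and 11 passed without DMSO A, 7 without EPZ015666 A and 6 without EPZ015666 B. Members' share of reads in BT549 was 2.80% and 2.85% with EPZ015666, against 3.02% and 2.94% with DMSO, and in MDAMB436 2.57% and 2.53% with EPZ015666, against 2.81% and 2.67% with DMSO. Reads of mitochondrial genes were higher with EPZ015666 in these lines too. They took 1.61% and 1.52% of reads with EPZ015666, against 1.31% and 1.42% with DMSO, in BT549 at day 5. In MDAMB436 they took 3.03% and 3.00% with EPZ015666, against 2.51% and 2.50% with DMSO.

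**Figure D2:**
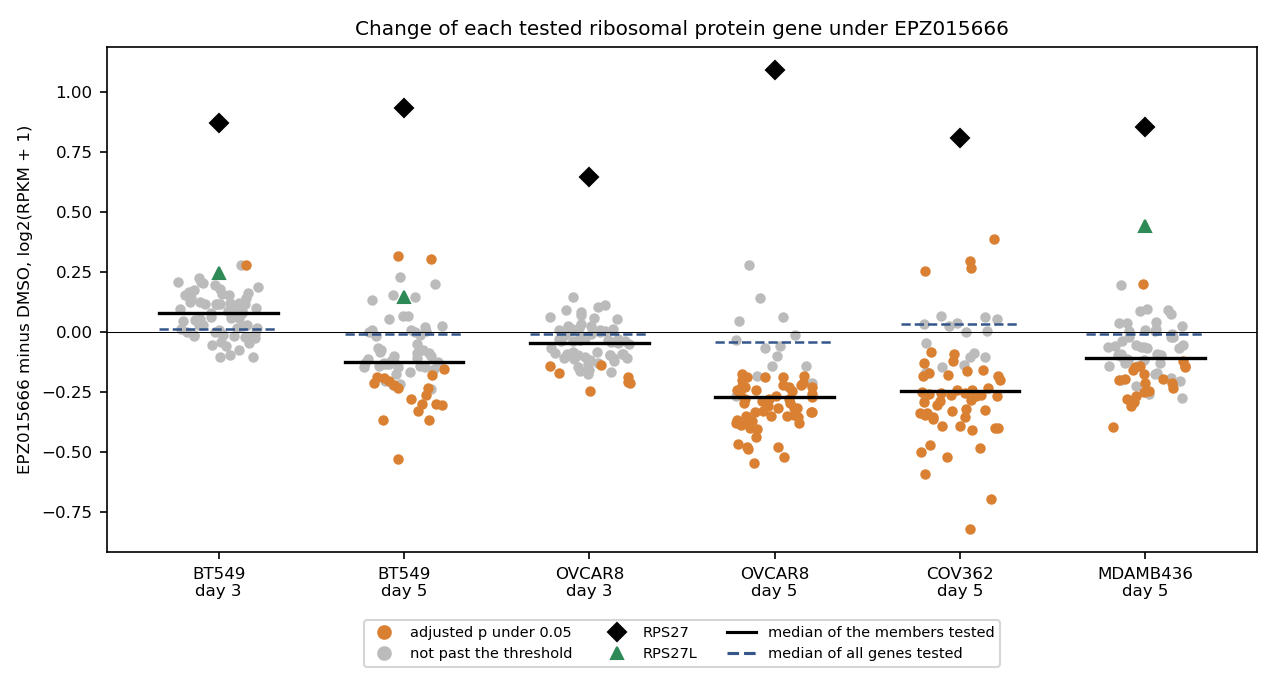
Each point is the log2 change of 1 member (EPZ015666 over DMSO, on the log2(RPKM + 1) scale) in each of the 6 drug comparisons, in orange where called and grey where not, with a diamond for RPS27, a triangle for RPS27L, a black line at the median of the members and a dashed line at the median of all genes tested. The members' median lies at −0.27 in OVCAR8 and −0.25 in COV362 at day 5 and near 0 at day 3, and the diamond is above 0 throughout.

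Both subunits took part in the day 5 fall of the ovarian lines, where 35.1% of all genes were lower in OVCAR8 and 31.5% in COV362. In OVCAR8 at day 5, 35 of 41 large-subunit and 19 of 28 small-subunit members were lower, with medians of −0.27 in each. In COV362 the counts were 29 of 41 and 18 of 27, with medians of −0.25 and −0.24. In BT549 they were 9 of 41 and 9 of 29, beside 22.7% of all genes lower. In MDAMB436 they were 12 of 41 and 8 of 29, beside 23.2% of all genes. A set of 41 members shared under 20% of their exon words and had under 20% of their exon bases inside other genes' spans. Of this set, 35 of 39 tested were lower in OVCAR8, 29 of 39 in COV362, 11 of 40 in BT549 and 11 of 40 in MDAMB436. The same shares of all genes stand beside these counts, and those of the breast lines were near them.

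RPL13A, a large-subunit protein that also takes part in interferon-dependent control of translation, had the largest fall at day 5 on the log2(RPKM + 1) scale in BT549, OVCAR8 and COV362, while by fold RPL22L1 fell further in OVCAR8. The values in COV362 were 29.03 and 30.2 RPKM with EPZ015666, against 53.3 and 53.0 RPKM with DMSO (0.558-fold, −0.82 ± 0.03, adjusted p = 0.000186). In OVCAR8 it had 55.0 and 57.8 RPKM with EPZ015666, against 86.3 and 79.3 RPKM with DMSO (0.681-fold, −0.55 ± 0.06, adjusted p = 0.000719), and without EPZ015666 B the change was −0.58 (adjusted p = 0.00395). In BT549 it had 21.6 and 22.5 RPKM with EPZ015666, against 32.8 and 31.8 RPKM with DMSO (0.684-fold, −0.53 ± 0.05, adjusted p = 0.000356). Treated libraries lay below DMSO libraries in all 3 lines. MDAMB436 libraries had 13.9 and 13.0 RPKM with EPZ015666, against 15.68 and 15.7 RPKM with DMSO (0.855-fold, −0.21 ± 0.05, adjusted p = 0.0215). At day 3 it had 25.5 and 26.5 RPKM with EPZ015666, against 27.6 and 26.4 RPKM with DMSO, in BT549, and 53.5 and 59.2 RPKM with EPZ015666, against 64.4 and 63.1 RPKM with DMSO, in OVCAR8, neither past the threshold, also without EPZ015666 A in BT549 (−0.03, adjusted p = 0.78). In BT549 the day 5 change minus the day 3 change was −0.47 (adjusted p = 0.0223). It was the only member to pass that test in BT549. Of the exon words of RPL13A, 29.9% also occur in other genes, and 17.3% of its exon bases lie inside other genes' spans.

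RPL10A, a large-subunit protein near the ribosome's exit site for transfer RNA, was lower at day 5 in every line. COV362 libraries had 175 and 177 RPKM with EPZ015666, against 288 and 284 RPKM with DMSO (0.616-fold, −0.70 ± 0.03, adjusted p = 0.000206). At day 5 OVCAR8 had 223 and 225 RPKM with EPZ015666, against 286 and 272 RPKM with DMSO (0.803-fold, −0.32 ± 0.05, adjusted p = 0.00171), and without EPZ015666 B the change was −0.32 (adjusted p = 0.0101). BT549 at day 5 had 162 RPKM in both EPZ015666 libraries, against 200.5 and 199.9 RPKM with DMSO (0.81-fold, −0.30 ± 0.06, adjusted p = 0.00584). Groups did not overlap, and COV362 had the largest fall of the 3 lines. In MDAMB436 it had 98.3 and 101 RPKM with EPZ015666, against 119 and 111 RPKM with DMSO (0.868-fold, −0.20 ± 0.05, adjusted p = 0.0299), a call that held under 7 of 12 other settings. At day 3 it had 159 and 171 RPKM with EPZ015666, against 161 and 171 RPKM with DMSO, in BT549, where the groups overlapped and the sign turned without DMSO B or without EPZ015666 A. In OVCAR8 at day 3 it had 209 and 223 RPKM with EPZ015666, against 233 and 228 RPKM with DMSO (−0.09, adjusted p = 0.154). The size of the day 5 change differed among lines (adjusted p = 5.3e-05).

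RPS2, a small-subunit protein at the messenger RNA entry channel, followed another order of lines. The values in MDAMB436 were 119 and 111 RPKM with EPZ015666, against 156 and 148 RPKM with DMSO (0.758-fold, −0.40 ± 0.05, adjusted p = 0.00676), the largest fall among the members called in that line. In COV362 it had 343 and 361 RPKM with EPZ015666, against 409 and 400.4 RPKM with DMSO (0.87-fold, −0.20 ± 0.04, adjusted p = 0.00902), a call lost without DMSO A. In OVCAR8 at day 3 it had 306 and 317 RPKM with EPZ015666, against 377.5 and 347 RPKM with DMSO (0.861-fold, −0.21 ± 0.05, adjusted p = 0.0169). These groups did not overlap, and OVCAR8 already showed the fall at day 3. The OVCAR8 values at day 5 were 353.5 and 343 RPKM with EPZ015666, against 399.7 and 394 RPKM with DMSO (0.878-fold, −0.19, adjusted p = 0.0181), a call that held under 7 of 12 other settings and was lost without EPZ015666 B (−0.17, adjusted p = 0.0816), and a sign that turned with a correction for GC content and span. In BT549 it had 175 and 169.6 RPKM with EPZ015666 at day 5, against 184 and 182 RPKM with DMSO (−0.09, adjusted p = 0.337), and the same correction turned that sign too. At day 3 in BT549 it had 163 and 165 RPKM with EPZ015666, against 155 and 177 RPKM with DMSO, which overlapped, and the sign turned without DMSO B. Of the exon words of RPS2, 54.1% also occur in other genes.

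Other members led in single lines. In COV362, RPL3, which lies at the peptidyl transferase centre, had 156 and 155 RPKM with EPZ015666, against 239 and 229.7 RPKM with DMSO (0.662-fold, −0.59 ± 0.03, adjusted p = 0.000325). In OVCAR8 at day 5, RPL36, a large-subunit protein, had 31.2 and 34.0 RPKM with EPZ015666, against 46.7 and 45.5 RPKM with DMSO (0.707-fold, −0.49 ± 0.04, adjusted p = 0.000284), and without EPZ015666 B the change was −0.55 (adjusted p = 0.000712). Both genes stood clear of their DMSO libraries. RPL10, which sits near the peptidyl transferase centre, had 18.6 and 18.1 RPKM with EPZ015666, against 24.6 and 23.3 RPKM with DMSO, in BT549 at day 5 (0.766-fold, −0.37 ± 0.05, adjusted p = 0.00135). RPSA, a small-subunit protein also known as a laminin receptor, had 26.9 and 23.1 RPKM with EPZ015666, against 30.8 and 31.4 RPKM with DMSO, in MDAMB436 (0.804-fold, −0.31 ± 0.08, adjusted p = 0.0316). Of the exon bases of RPL10, 61.6% lie inside the spans of other genes. RPSA shares 58.2% of its exon words with other genes, RPL3 28.7% and RPL36 21.5%.

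Members known for roles beyond the ribosome were mixed. RPL11 and RPL5, which bind MDM2 as part of the nucleolar stress response, gave little to call. RPL11 had 121.5 and 134 RPKM with EPZ015666, against 151 and 140.5 RPKM with DMSO, in OVCAR8 at day 5 (−0.19, adjusted p = 0.0436, and −0.26, adjusted p = 0.027, without EPZ015666 B). The values in COV362 were 245 and 254 RPKM with EPZ015666, against 277 and 265 RPKM with DMSO (−0.12, adjusted p = 0.0463). At day 5 BT549 had 212.5 and 209.5 RPKM with EPZ015666, against 222 and 205 RPKM with DMSO, and in MDAMB436 80.6 and 79.5 RPKM with EPZ015666, against 81.5 and 77.2 RPKM with DMSO, which overlapped in both lines. At day 3 it had 203 and 243 RPKM with EPZ015666, against 199.98 and 197 RPKM with DMSO, in BT549 (0.16, adjusted p = 0.221, and 0.29, adjusted p = 0.0317, without EPZ015666 A), and 138 and 149 RPKM with EPZ015666, against 132 RPKM in both DMSO libraries, in OVCAR8 (0.11, adjusted p = 0.2125). The common day 5 change of RPL11 was −0.08 (adjusted p = 0.0631). RPL5 lay between 0.023 and 0.169 RPKM over the 24 libraries and was tested in none.

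RPS6, the small-subunit substrate of S6 kinase, was lower in the ovarian lines at day 5. It had 326 and 332 RPKM with EPZ015666, against 433 and 398 RPKM with DMSO, in OVCAR8 (0.792-fold, −0.33, adjusted p = 0.00462, and −0.35, adjusted p = 0.0206, without EPZ015666 B). COV362 libraries had 258 and 267.5 RPKM with EPZ015666, against 352 and 339 RPKM with DMSO (0.761-fold, −0.39, adjusted p = 0.00107). No treated library reached a DMSO library in these lines. The BT549 values at day 5 were 479 and 494 RPKM with EPZ015666, against 563 and 529.9 RPKM with DMSO (−0.17, adjusted p = 0.113), and in MDAMB436 161 and 165 RPKM with EPZ015666, against 174 RPKM in both DMSO libraries (adjusted p = 0.09). Day 3 gave 449.995 and 517 RPKM with EPZ015666, against 447.5 and 452 RPKM with DMSO, in BT549, and 306 and 338 RPKM with EPZ015666, against 347 and 339.8 RPKM with DMSO, in OVCAR8. RPS6 passed at day 3 in neither line, also without the BT549 library with more ribosomal RNA reads (0.20, adjusted p = 0.066).

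The stalk, which recruits translation factors to the large subunit, is built on RPLP0 and carries RPLP1 and RPLP2. RPLP0 had 145 and 154 RPKM with EPZ015666, against 183 and 176 RPKM with DMSO, in COV362 (−0.26, adjusted p = 0.00522). In OVCAR8 at day 5 it had 245 and 243 RPKM with EPZ015666, against 281.5 and 269.5 RPKM with DMSO (−0.17, adjusted p = 0.0142, and 0.0587 without EPZ015666 B). MDAMB436 libraries had 197 and 198 RPKM with EPZ015666, against 212 and 217 RPKM with DMSO (−0.12, adjusted p = 0.0433). At day 5 in BT549 the values ran the other way without passing, at 119.8 and 122 RPKM with EPZ015666, against 116 and 115 RPKM with DMSO (0.07, adjusted p = 0.395), and likewise at day 3, at 115 and 121 RPKM with EPZ015666, against 99.1 and 107 RPKM with DMSO (0.20, adjusted p = 0.0532, and 0.0518 without EPZ015666 A). RPLP0 in OVCAR8 at day 3 overlapped, with 226.5 and 241 RPKM with EPZ015666, against 239 and 235 RPKM with DMSO. RPLP1 was called lower in 3 and RPLP2 in 4 of the 6 comparisons, and neither was called higher.

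Some members with a paralogue are given next, though no pair here had both partners tested. RPL22L1, the paralogue of the RNA-binding protein RPL22, had 3.20 and 3.28 RPKM with EPZ015666, against 5.33 and 4.86 RPKM with DMSO, in OVCAR8 at day 5 (0.636-fold, −0.52 ± 0.10, adjusted p = 0.00466, and 0.0219 without EPZ015666 B). In COV362 it had 6.67 and 6.94 RPKM with EPZ015666, against 5.30 and 5.42 RPKM with DMSO (1.27-fold, 0.30 ± 0.03, adjusted p = 0.00139). It therefore fell in one ovarian line and rose in the other, with no overlap in either. In MDAMB436 it had 4.26 and 4.16 RPKM with EPZ015666, against 5.21 and 5.42 RPKM with DMSO (0.79-fold, −0.28, adjusted p = 0.00678). RPL22 itself was under the expression filter in every line. Its values were 0.467 and 0.487 RPKM with EPZ015666, against 0.194 and 0.208 RPKM with DMSO, in COV362, and 0.137 and 0.109 RPKM with EPZ015666, against 0.132 and 0.133 RPKM with DMSO, in OVCAR8 at day 5. RPL22 had 0.234 and 0.233 RPKM with EPZ015666, against 0.092 and 0.101 RPKM with DMSO, in BT549 at day 5, and 0.254 and 0.199 RPKM with EPZ015666, against 0.121 and 0.093 RPKM with DMSO, in MDAMB436. Treated libraries of RPL22 thus lay above DMSO libraries in 3 lines and overlapped them in OVCAR8, with 56 to 404 reads a library and no test. RPL39L, the paralogue of RPL39 with high expression in testis, stayed between 0.257 and 0.809 RPKM and was not tested either. Its gene span is 59961 bases, so it fell under the filter on RPKM though it averaged 28.9 RPM, more than RPS27 with 9.82 RPM. RPL26L1, the paralogue of RPL26, rose in COV362, with 4.055 and 3.95 RPKM with EPZ015666, against 2.81 and 2.84 RPKM with DMSO (1.42-fold, 0.39 ± 0.03, adjusted p = 0.00053). RPL26 itself was not among the members. RPL22L1 shares none of its exon words with other genes (0%), RPL22 shares 15.1% and RPL26L1 30.8%, and 50.1% of the exon bases of RPL22 lie inside the spans of other genes.

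Few other members were called higher. In BT549 at day 5, RPL7 had 8.05 and 8.004 RPKM with EPZ015666, against 6.05 and 6.47 RPKM with DMSO (1.28-fold, 0.32 ± 0.08, adjusted p = 0.0189), and RPL21 had 2.11 and 2.53 RPKM with EPZ015666, against 1.69 and 1.67 RPKM with DMSO (1.38-fold, 0.30 ± 0.07, adjusted p = 0.0154). RPL7 was called lower in OVCAR8 at day 5 (−0.21, adjusted p = 0.0448, and 0.11 without EPZ015666 B), so that RPL7 and RPL22L1 were the members called in both directions. RPS28 was 1.24-fold higher in MDAMB436, at 2.21 and 2.13 RPKM with EPZ015666, against 1.82 and 1.69 RPKM with DMSO (0.20 ± 0.04, adjusted p = 0.0171). In COV362, where RPS28 was under the filter, it had 1.32 and 1.16 RPKM with EPZ015666, against 0.685 and 0.674 RPKM with DMSO. RPL7 and RPL21 share 62.9% and 56% of their exon words with other genes, and 47.0% of the exon bases of RPS28 lie inside the spans of other genes. Whether reads of copies take part in these rises was not tested.

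At day 3 the family showed little of the day 5 pattern. In BT549, 0 of 70 members were lower and 3 were higher (RPS27, RPS7 and RPS27L), beside 10.8% of all genes lower and 9.22% higher, with medians of 0.08 and 0.01. RPS7 had 7.16 and 6.87 RPKM with EPZ015666, against 5.77 and 5.44 RPKM with DMSO (1.25-fold, 0.28 ± 0.05, adjusted p = 0.00904, and 0.0366 without EPZ015666 A), and 37.9% of its words are shared. Without the library with more ribosomal RNA reads 12 members passed in BT549 at day 3. In OVCAR8, 7 of 69 (10.1%) were lower (RPL28, RPL36, RPL8, RPLP1, RPLP2, RPS12 and RPS2) and RPS27 was higher, beside 21.4% lower and 15.6% higher, with medians of −0.05 and −0.01. RPLP1 had 126 and 141 RPKM with EPZ015666, against 165 and 153 RPKM with DMSO (0.842-fold, −0.25 ± 0.07, adjusted p = 0.0309), and RPS12 had 47.3 and 50.7 RPKM with EPZ015666, against 59.8 and 53.7 RPKM with DMSO (0.863-fold, −0.21 ± 0.06, adjusted p = 0.0374). In OVCAR8 at day 3, 8 members passed, and 1 passed without DMSO A, 5 without DMSO B and 3 without EPZ015666 A.

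The day 5 change was tested against the day 3 change within each line, and this difference was not compared between the lines. In OVCAR8, 17 of 69 members (24.6%) had a lower change at day 5 than at day 3 and 0 a higher one, beside 5.15% and 2.31% of all genes, with a median difference of −0.24. The largest was that of RPL35, at −0.43. Among the others were RPL37, RPL30, RPS15, RPL28, RPL36, RPL9, RPS9, RPS16, RPL13, RPL4, RPS19, RPL18, RPL3 and RPS3. Leaving out any 1 of the 8 OVCAR8 libraries left 0 members past the threshold. In BT549 the median difference was −0.21, with 1 of 70 members lower (RPL13A) and 0 higher, beside 4.45% and 1.52% of all genes. That count was 0 without either of the EPZ015666 or DMSO libraries of day 5, 4 without EPZ015666 day 3 A and 5 without DMSO day 3 B.

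The solvent libraries themselves moved with time. With DMSO alone, 37 of 69 members (53.6%) were higher at day 5 than at day 3 in OVCAR8 and 0 lower, beside 20.7% and 15.9% of all genes, with medians of 0.21 and 0.02. In BT549 with DMSO, 19 of 70 (27.1%) were higher at day 5 and 0 lower, beside 10.7% and 6.02%, with medians of 0.20 and 0.02. RPL10A rose with DMSO by 0.28 in OVCAR8 (adjusted p = 0.00633) and 0.27 in BT549 (adjusted p = 0.0229). These comparisons use the same DMSO day 5 libraries as the day 5 drug comparisons, so the values are not independent. In BT549 the count was 0 without DMSO day 5 A or B and 2 without DMSO day 3 A. In OVCAR8 it was 23 without DMSO day 5 A, 22 without DMSO day 3 A and 19 without DMSO day 3 B.

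Treated cells at day 5 were also set against solvent cells at day 3. In OVCAR8, 10 of 69 members (14.5%) were lower and 1 was higher, beside 26.6% and 15.1% of all genes, with medians of −0.07 and −0.03. In BT549, 2 of 70 (2.86%) were lower and 8 (11.4%) were higher, beside 16.7% and 13.7%, with medians of 0.05 and 0.01. These shares were below those of all genes. RPS27 was the exception, at 2.67-fold (1.19) in OVCAR8 and 2.52-fold (1.14) in BT549. RPL10A had 223 and 225 RPKM with EPZ015666 at day 5, against 233 and 228 RPKM with DMSO at day 3, in OVCAR8. In OVCAR8, 2 members passed without EPZ015666 day 5 A, 8 without EPZ015666 day 5 B, 1 without DMSO day 3 A and 5 without DMSO day 3 B, in place of 11. In BT549, 1 passed without EPZ015666 day 5 A, 2 without EPZ015666 day 5 B and 5 without DMSO day 3 B, in place of 10.

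**Figure D3:**
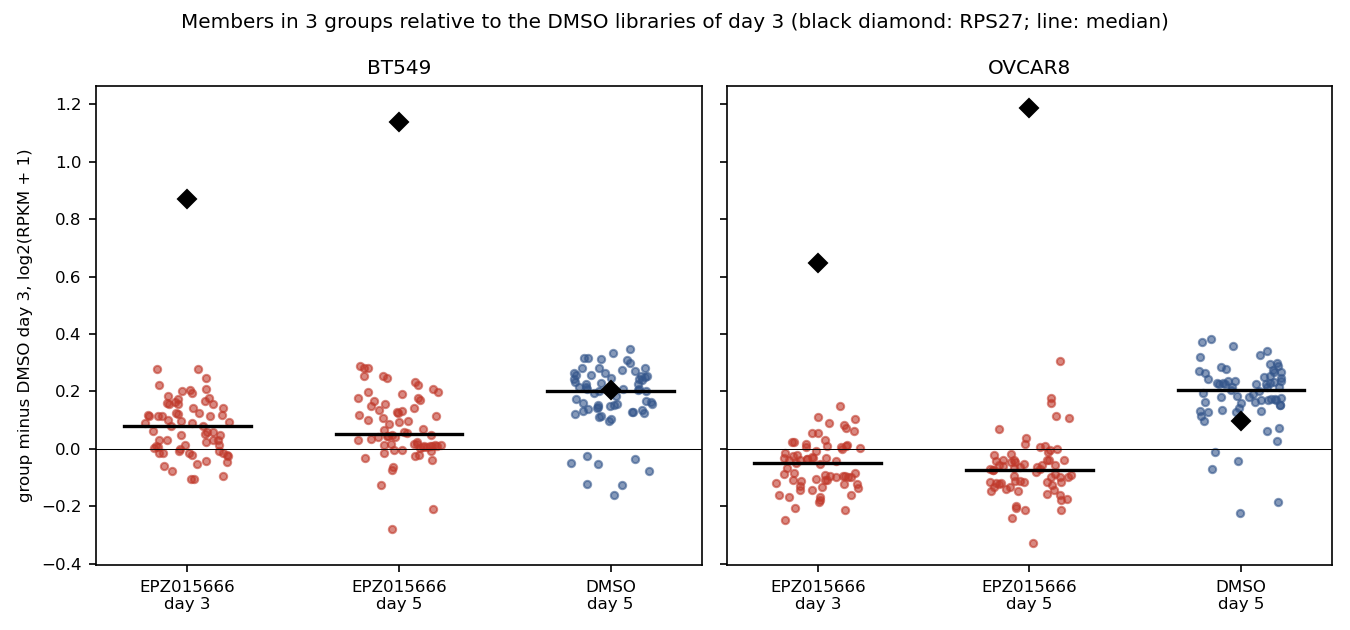
Log2 changes of the members against DMSO at day 3 in BT549 and OVCAR8, for EPZ015666 at day 3, EPZ015666 at day 5 and DMSO at day 5, with a diamond for RPS27 and a line at the median. The median of DMSO at day 5 is 0.20 in BT549 and 0.21 in OVCAR8, that of EPZ015666 at day 5 is 0.05 and −0.07, and all 3 conditions of a line share the same DMSO day 3 libraries.

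Over the 4 lines at day 5, 51 of 68 members (75%) were lower in the common change and 3 were higher (RPS27, RPL21 and RPL26L1), beside 36.9% of all genes lower and 34.8% higher. The median member changed by −0.19, beside 0.00 over all genes. The largest common falls were those of RPL13A (−0.53 ± 0.03, adjusted p = 6.58e-11) and RPL10A (−0.38 ± 0.02, adjusted p = 1.07e-09), and RPL10 (−0.32) and RPL28 (−0.31) were also low. RPS2 fell by 0.22 (adjusted p = 5.46e-06) and RPS6 by 0.25 (adjusted p = 2.96e-06). The rises of RPL21 (0.14, adjusted p = 0.002) and RPL26L1 (0.07, adjusted p = 0.00446) were small beside that of RPS27 (0.92). Neither had the same sign in every line. RPL26L1 changed by 0.387 in COV362, 0.036 in MDAMB436, −0.06 in OVCAR8 and −0.075 in BT549 (test among lines, adjusted p = 1.19e-05). RPL21 changed by 0.304 in BT549, 0.266 in COV362, 0.091 in MDAMB436 and −0.102 in OVCAR8 (test among lines, adjusted p = 0.00579). The change differed among the 4 lines for 39 of the 68 members, beside 74.7% of all genes tested, which is a smaller share than in the table as a whole. Without OVCAR8 EPZ015666 day 5 B, 55 members passed in the common change in place of 54, and 41 differed among lines.

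Counted over the 6 drug comparisons, RPS27 was the single member called higher in all of them. Of the 68 members tested in each line, 7 (10.3%) were called lower at day 5 in all 4 lines, beside 7.33% of all genes, among them RPS23, RPL10, RPL10A, RPL13 and RPL13A, and 0 members were lower in 5 or 6 of the comparisons. Of the 68 members tested in all 6 comparisons, 11 (16.2%) were called lower in 4, 17 in 3, 21 in 2, 9 in 1 and 10 (14.7%) in none. Among all 4721 genes tested in all 6, 6.06% were called lower in 4, 3.86% in 5, 4.09% in 6 and 41.5% in none. Of the 68, 61 (89.7%) were never called higher, beside 42.3% of all genes, and 63 genes (1.33%) were called higher in all 6 as RPS27 was.

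**Figure D4:**
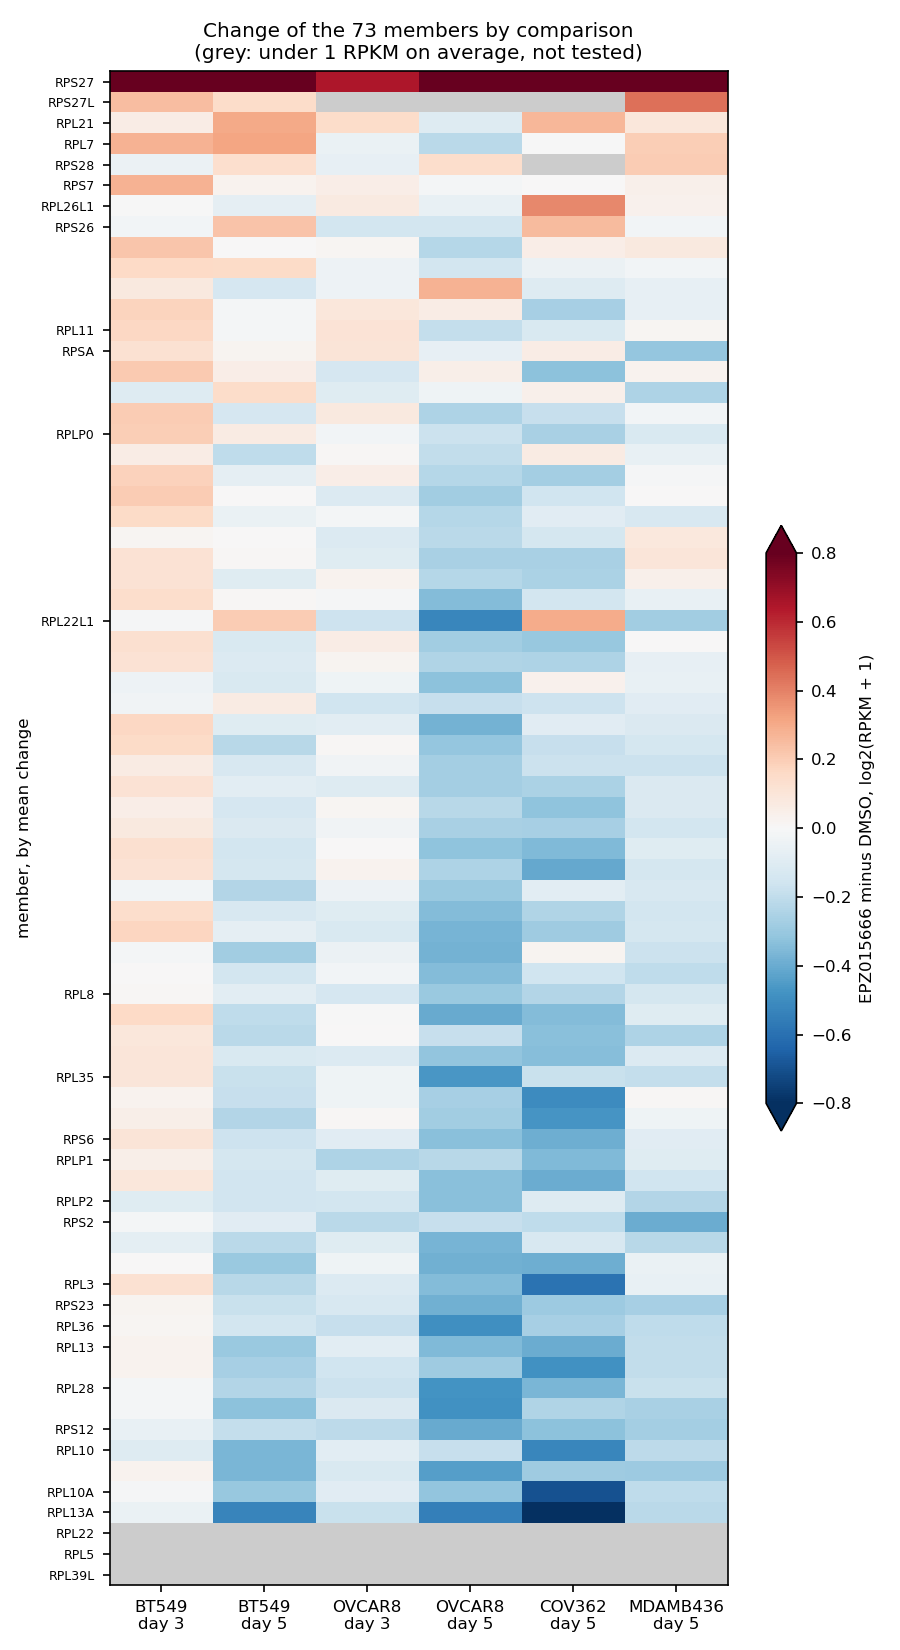
Log2 change (EPZ015666 over DMSO) of each of the 73 members in the 6 drug comparisons, with grey for members under the expression filter and names for members described in the text. Most members lie below 0 in OVCAR8 and COV362 at day 5, where the medians are −0.27 and −0.25, and RPS27 is above 0 in all 6.

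Members with more reads had larger falls. Of the 58 members with at least 50 RPM, 50 were lower in the common day 5 change, with a median of −0.21, whereas of the 10 members under that level 1 was lower, with a median of 0.03. Across the 67 members other than RPS27, the common change and the log10 of mean RPM had a Pearson correlation of −0.61 and a Spearman correlation of −0.5, a description over genes that share the same libraries. The 10 low members include RPS27 and rest on fewer reads, and the pseudocount shrinks the change of those that are also low in RPKM. What makes the members differ by read level was not tested. Members sharing at least 20% of exon words had a median of −0.12 (13 of 24 lower), against −0.20 (38 of 44 lower) in the others.

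**Figure D5:**
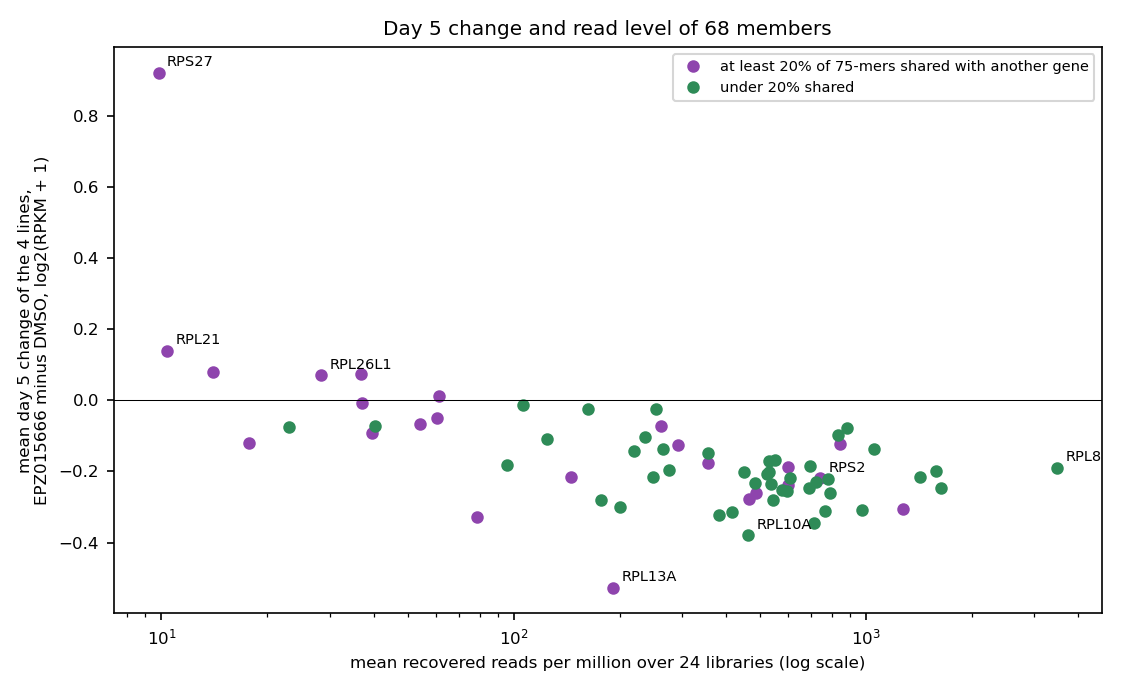
Common day 5 change of 68 members on the log2 scale against mean RPM on a log axis, in purple for members that share at least 20% of their 75-base exon words with other genes and in green for the rest. Members with under 50 RPM have a median change of 0.03 and the others of −0.21, and RPS27 stands at 0.92.

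Other features of the members were set against the same change. The 25 tested members that host an annotated snoRNA had a median change of −0.21 (18 lower), against −0.19 (33 of 43 lower) for the members that host none. Among the 7 members lower in all 4 lines at day 5, 5 host a snoRNA, and over the family 26 of 73 do. Members with a run of at least 8 pyrimidines near the start had a median of −0.20 (36 of 45 lower), against −0.11 (5 of 10 lower) for members with a promoter entry but no such run. Of the promoters shown above, RPL13A has a run of 14 and a common change of −0.53, RPL10A a run of 10 and −0.38, and RPS27 a run of 9 and 0.92. The correlation of run length with change across 54 members was −0.18 (Pearson) and −0.21 (Spearman), a weak relation.

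Genes of the pathway outside the family are counted beside the shares of all genes called lower and higher. These were 22.7% and 17.7% in BT549 at day 5, 10.8% and 9.22% in BT549 at day 3, 35.1% and 21.1% in OVCAR8 at day 5, 21.4% and 15.6% in OVCAR8 at day 3, 31.5% and 39.3% in COV362, and 23.2% and 19.0% in MDAMB436.

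Ribosomal proteins with other symbols gave a mixed account. RACK1, a scaffold on the small subunit, FAU, the precursor of RPS30, and RPL36AL were tested. FAU and RPL36AL were lower in OVCAR8 at day 5. RACK1 was lower and FAU higher in COV362, RACK1 and RPL36AL were higher in MDAMB436, RACK1 was higher in BT549 at day 3, and 0 of the 3 were called in BT549 at day 5 or OVCAR8 at day 3.

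Of 18 translation factors and other genes listed for their terminal oligopyrimidine mRNAs, 15 were in the table. In COV362, 8 of 15 were lower and 0 higher (EEF1A1, EEF1B2, EEF2, TPT1, PABPC1, NACA, EIF3E and EIF3L), with a median of −0.12, beside 31.5% lower and 39.3% higher over all genes. There the elongation factors EEF2 (0.729-fold, −0.46, adjusted p = 0.000486) and EEF1A1 (0.713-fold, −0.49, adjusted p = 0.000623) fell. In OVCAR8 at day 5, 5 were lower (EEF1B2, EEF1D, EEF2, EIF3E and EIF3F) and EIF2S3 was higher at 1.37-fold. In BT549 at day 5, 0 of 15 were lower and 2 higher (EIF2S3, and the nucleolar chaperone NPM1 at 1.41-fold), and in MDAMB436 0 of 14 were lower and 3 higher. At day 3 the counts were 0 lower and 5 higher in BT549, and 0 lower and 2 higher in OVCAR8.

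Chaperones and import receptors of ribosomal proteins moved in both directions. Of 10 tested, 1 was lower and 5 higher in BT549 at day 5, 2 and 2 in OVCAR8 at day 5, 3 and 6 in COV362, and 4 and 2 in MDAMB436. At day 3 the counts were 3 and 1 in BT549, and 2 and 0 in OVCAR8. These counts are to be read against the shares of all genes given above. The import receptor IPO9 was lower in 6 of 6 comparisons, between 0.707-fold in BT549 and 0.935-fold in OVCAR8, both at day 5. PDCD2, a chaperone of RPS2, was lower in 5 of 6, and BCCIP, a chaperone of RPL23, was higher in 5 of 6.

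Regulators of ribosomal protein output were tested next, between 11 and 13 of the 17 listed in each line. The counts were 1 lower and 2 higher in BT549 at day 5, 0 and 0 in BT549 at day 3, 1 and 5 in OVCAR8 at day 5, 1 and 2 in OVCAR8 at day 3, 2 and 8 in COV362, and 2 and 3 in MDAMB436, to be read against the same shares of all genes. PRMT5, the target of the drug, was higher in 5 of 6 comparisons, at 1.32-fold in BT549, 1.09-fold in OVCAR8, 1.42-fold in COV362 and 1.17-fold in MDAMB436 at day 5 and 1.24-fold in OVCAR8 at day 3, and was not called at 1.02-fold in BT549 at day 3. MYC, a transcription factor that drives ribosome synthesis, was lower in OVCAR8 (0.763-fold at day 5 and 0.702-fold at day 3) and higher in COV362 (1.33-fold). The translation repressor EIF4EBP1 was higher in OVCAR8 (1.28-fold at day 5 and 1.25-fold at day 3) and COV362 (1.57-fold).

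Likeness to the family was measured as the Pearson correlation of a gene's 6 drug changes with those of RPS27 or with the median of the other members. Most like RPS27 among 4720 genes were FTH1P7 (0.949), ATL3 (0.938), EDEM1 (0.930), AC005261.1 (0.906) and KIF3B (0.903), and the changes of RPL10A (−0.15) and RPS2 (0.18) were unlike it. Most like the median of the others among 4653 genes were RPL26P19 (0.996), RPL21P119 (0.994), MMS19 (0.983), RPL7P9 (0.979) and GRAMD1A (0.977). By their symbols, RPL21P119 and RPL7P9 are annotated copies of members, and RPL26P19 is a copy of RPL26, which was not among the members. With 6 comparisons, these coefficients are a description of shape and not of size or direction. KIF3B was below 0 in each comparison, between −0.135 and −0.006, unlike RPS27. FTH1P7 and AC005261.1 had changes of both signs, and ATL3 and EDEM1 were above 0 in each.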

How the data were processed

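RNA was extracted with the Qiagen RNeasy Plus Mini Kit, and stranded poly(A) libraries were made and sequenced by Novogene, per the labels' protocols. The authors deposited 1 table of RPKM values for 24 libraries. Reads were counted with featureCounts against GRCh38, per the submitters' processing notes. Not given in the sources used here are the aligner, the annotation, the strand setting, the treatment of reads that map to several places, any versions, and whether reads in introns were counted. The deposited RPKM are whole multiples of the value of 1 read for the gene's span in GENCODE v29, so whole reads were recovered: 99.97% of values under 1000 reads came out whole within 0.02 over 16568 genes.

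The members and gene lists were chosen with earlier results of these data known. Each line was fitted with limma 3.58.1 (R 4.3.3) on log2(RPKM + 1) with a trended prior, over genes with a mean of at least 1 RPKM in the line's libraries. P-values were adjusted by Benjamini-Hochberg over all genes tested, with a threshold of 0.05. The filter passed 70 members in BT549, 69 in OVCAR8, 68 in COV362 and 70 in MDAMB436. RPL5, RPL22 and RPL39L failed in every line, RPS27L also in OVCAR8 and COV362, and RPS28 in COV362. The common change and tests among lines used 1 fit over 24 libraries for genes that passed in each of the 4 lines, which held 68 members. A fitted value uses all libraries of a line, with none dropped or imputed. Summaries and figures used Python 3.11.15, pandas 2.3.3, numpy 2.4.6 and matplotlib 3.10.9. The script for the fits was tested on simulated data.

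Members named with their values were RPL10A, RPS2, RPS27, RPS27L, RPL5, RPL11, RPS6 and RPLP0, plus the called members with the 3 largest rises and 3 largest falls of each drug comparison. Some items that this rule or the lists would name are not reported here. Other members, and the genes named from lists, were chosen after their values were seen. Shared exon words are 75-mers of 1 GENCODE v29 transcript per member that also occur in transcripts of other genes. Promoter sequence is from RefSeq (GRCh38.p14). Alternatives were a pseudocount of 0.1, no filter, a filter at 5 RPKM, the letters A and B as a block, median-of-ratios scaling, 1 fit over several lines, limma-voom on recovered reads of genes with at least 1 CPM, a lowess correction (span 0.3) for GC content and gene span, and leaving out each library.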

Additional observations from a re-analysis of the deposited data

Results flagged for a closer look

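The drug change of members was compared between days and between lines by direct tests (limma, Benjamini-Hochberg over all genes). In BT549, 1 of 70 members (RPL13A, 1.43%) had a lower change at day 5 than at day 3 and 0 a higher one. Over all genes 4.45% were lower and 1.52% higher there. In OVCAR8, 17 of 69 members (24.6%) were lower and 0 higher, beside 5.15% and 2.31% of all genes. Among the 4 lines at day 5, 39 of 68 members differed in their change, a smaller share than the 74.7% of all genes. The OVCAR8 count was 0 without any 1 of its 8 libraries, and the BT549 count ranged from 0 to 5. The count among lines ranged from 29 to 41 as libraries were left out in turn.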

How the results depend on the processing

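Counts here are of members past the threshold in either direction, and the causes of their shifts were not tested. With all libraries the drug counts were 21 in BT549 at day 5, 3 in BT549 at day 3, 55 in OVCAR8 at day 5, 8 in OVCAR8 at day 3, 52 in COV362 and 23 in MDAMB436. Leaving out each library in turn gave 5 to 6, 2 to 12, 36 to 51, 1 to 8, 38 to 52 and 6 to 25 in the same order. For the day 5 change minus the day 3 change it gave 0 to 5 in BT549 (1 with all) and 0 throughout in OVCAR8 (17). For DMSO at day 5 against day 3 it gave 0 to 16 in BT549 (19) and 19 to 34 in OVCAR8 (37), and for EPZ015666 at day 5 against DMSO at day 3 it gave 1 to 8 in BT549 (10) and 1 to 8 in OVCAR8 (11).

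With 1 fit over several lines the count was 40 in BT549 at day 5 and 10 in BT549 at day 3. With median-of-ratios scaling it was 5 in BT549 at day 3, 10 for the day 5 minus day 3 change in OVCAR8 and 6 for EPZ015666 at day 5 against DMSO at day 3 in OVCAR8. With the correction for GC content and span it was 7 in BT549 at day 3. Without the filter it was 5 in OVCAR8 at day 3 and 10 in MDAMB436. On recovered reads (limma-voom) it was 11 in BT549 at day 3, 13 in OVCAR8 at day 3, 39 in MDAMB436, 59 for the difference among lines, 5 (BT549) and 46 (OVCAR8) for day 5 minus day 3, and 21 (BT549) and 24 (OVCAR8) for EPZ015666 at day 5 against DMSO at day 3.

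With the replicate block the count was 4 in OVCAR8 at day 3, 13 in MDAMB436, 0 for day 5 minus day 3 in both lines, 10 for DMSO over time in BT549 and 4 for EPZ015666 at day 5 against DMSO at day 3 in OVCAR8. Deviations of libraries with the same letter had correlations between −0.196 and 0.214 over the 6 drug comparisons. With so few libraries in each comparison, these values cannot show whether the letters mark paired cultures or preparations.

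RPS27 kept its direction and call throughout. RPS2 was 0.011 in BT549 and 0.003 in OVCAR8 at day 5 with the GC and span correction. In BT549 at day 3, leaving out libraries in turn took RPL10A between −0.064 and 0.047 and RPS2 between −0.110 and 0.079. Over all genes, calls in OVCAR8 at day 5 were 2220 lower and 1338 higher, but 1764 and 1691 with the GC and span correction and 3170 and 3698 on recovered reads. On recovered reads they were 2035 lower and 3398 higher in BT549 at day 5, where 13 members were lower and 10 higher, and 1987 lower and 2765 higher in OVCAR8 at day 3. A sum of RPS27 with its copies could not be formed, as 0 copies were in the table. Depth limits RPL5, with 7 to 49 reads per library, and RPL22, with 56 to 404.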
